A study of Mus musculus with 51 samples.

Results

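The genes described here are 10 mouse enzymes that make bile acids from cholesterol and join them to taurine or glycine. They are Cyp7a1, Cyp8b1, Cyp27a1, Cyp7b1, Hsd3b7, Akr1d1, Amacr, Acox2, Slc27a5 and Baat, and they were taken by name as 10 of the 33773 genes in the deposited expression matrix. Each had 1 value in all 21 RNA libraries used, and all 10 passed the filter on low values in hepatocytes and in liver. The unit was RPKM, reads scaled by gene length and library size, so levels of different genes are comparable per length.

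The series asked what adult mouse hepatocytes lose without the FoxA factors, forkhead proteins that open chromatin in the liver. FoxA triple null mice (4 libraries) carried floxed FoxA1 and FoxA2 alleles (L/L) and no FoxA3 (FoxA3-/-), and received an adeno-associated virus 8 with Cre at 8 weeks. The thyroid-binding globulin (Tbg) promoter, active in hepatocytes, drove that Cre. FoxA3 null mice (4 libraries) had the same alleles and received the virus with GFP, so both groups lacked FoxA3. FoxA1/A2 lox animals (3 libraries) served as undeleted controls with FoxA3 present, and FoxA1/A2 Cre alfp animals (4 libraries) lost FoxA1 and FoxA2 through the alfp Cre transgene and kept FoxA3. Ages of those animals were not stated. Liver RNA came from 2 libraries labelled HNF4a control and 4 labelled HNF4a null, with HNF4a, a nuclear receptor of hepatocytes, depleted in adults. The labels do not say that libraries of a group came from separate animals, so p-values measure the spread between these libraries, which may be technical.

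Hepatocytes turn cholesterol into bile acids by a classic pathway that starts with 7α-hydroxylation of the sterol ring and an alternative pathway that starts on the side chain. The 12α-hydroxylase Cyp8b1 decides how much cholic acid is made relative to other bile acids. The side chain is then shortened in peroxisomes, and the product is activated with coenzyme A and conjugated before export into bile. Bile acids act back on the first steps through the receptor FXR (Nr1h4) and the repressor SHP (Nr0b2).

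Before the results, the deleted genes were read in each group. Foxa2 averaged 0.366 ± 0.103 RPKM (SD, n = 4) in triple null libraries and 13.7 ± 4.58 in FoxA3 null libraries, and Foxa1 averaged 3.28 ± 0.283 against 8.50 ± 1.85. In the Cre alfp libraries Foxa1 and Foxa2 averaged 1.24 and 1.09 RPKM, and Foxa3 averaged 31.1. Foxa3 reached at most 0.0114 RPKM in the libraries of mice without FoxA3. The 8 hepatocyte libraries without FoxA3 also stood apart from the 7 with it: 11 genes were at 0 RPKM in all 8 and above 1 in all 7, and 2 genes showed the reverse. None of the enzymes was among them. All 11 were also at 0 in the 6 liver libraries, in which Foxa3 measured 23.3 to 31.4 RPKM. For the enzymes, a technical batch along this split and FoxA3 status cannot be told apart, so the main comparisons stay within 1 side of it. Hnf4a went against its label: it measured 118 and 126 RPKM in the control livers and 487 to 545 in libraries labelled HNF4a null. With a single value per gene, transcripts without the deleted exons are counted together with whole ones.

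In FoxA triple null hepatocytes the 12α-hydroxylase Cyp8b1 was almost lost, the sterol 27-hydroxylase Cyp27a1 and the peroxisomal oxidase Acox2 fell, and the reductase Akr1d1 rose. Cyp8b1 dropped to 0.622% of its FoxA3 null mean, Cyp27a1 to 32.6% and Acox2 to 49.3%, while Akr1d1 reached 362%. The other 6 enzymes, among them the rate-limiting Cyp7a1 and the conjugating pair Slc27a5 and Baat, passed no threshold. A gene was counted as changed when limma on log2(RPKM + 1) gave a Benjamini-Hochberg adjusted p under 0.05 over all 11500 genes tested and a log2 difference of at least 1. By this rule 3 enzymes were lower and 1 was higher, beside 3.95% of all genes called lower and 4.17% called higher, 8.11% in all. The median log2 difference of the 10 enzymes was -0.17, beside 0.05 over all genes.

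**Figure D1:**
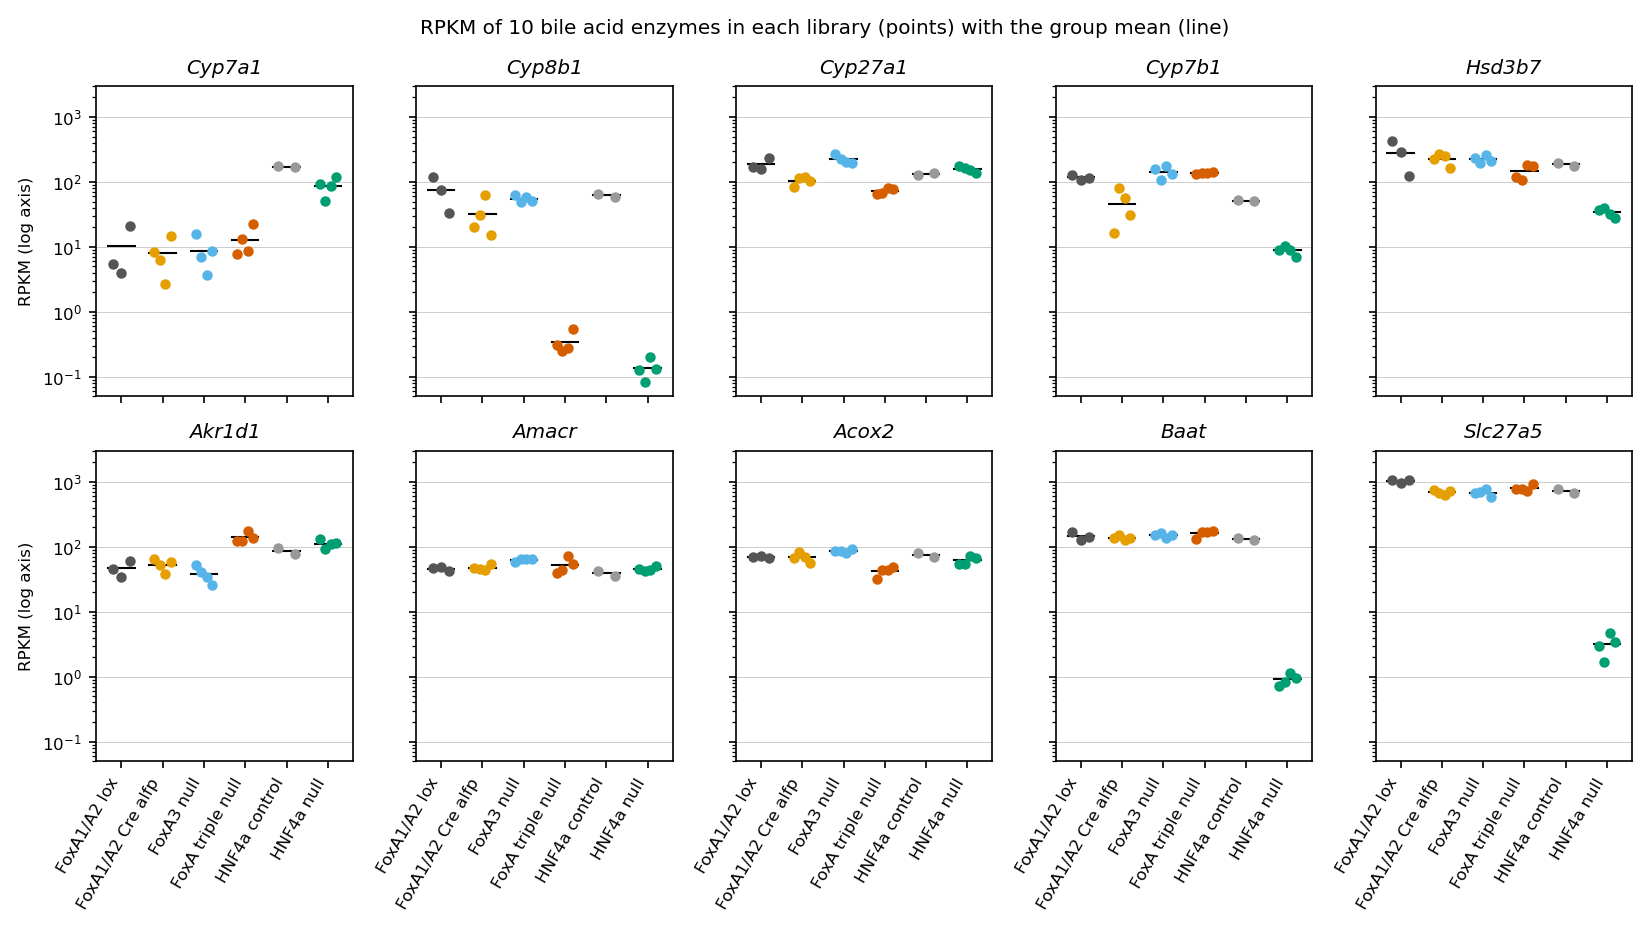
RPKM of each bile acid enzyme on a log axis in the 21 libraries, 1 panel per enzyme and 1 point per library, with the group mean as a line. Cyp8b1 lies below 1 RPKM in the FoxA triple null libraries and in those labelled HNF4a null, while Baat and Slc27a5 are low in the libraries labelled HNF4a null and lie between 128 and 1057 RPKM in the 4 FoxA groups.

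The 4 triple null libraries held 0.313, 0.246, 0.276 and 0.548 RPKM of Cyp8b1. The FoxA3 null libraries held 62.9, 49.8, 58.0 and 51.6 RPKM. The groups did not come near each other, and the ratio of their means was 161. On the log2(RPKM + 1) scale, which understates changes toward 0, the difference was -5.39 (SE 0.39, limma adjusted p = 1.54e-07), and with a pseudocount of 0.1 it was -7.00. Where FoxA3 was still present, loss of FoxA1 and FoxA2 left 20.3, 31.4, 63.1 and 15.2 RPKM of Cyp8b1 in the Cre alfp libraries. The undeleted lox libraries measured 120, 75.8 and 33.3 RPKM. These 2 groups overlapped, because Cre alfp library 3 lay above lox library 3. The difference, -1.23 (95% interval -2.12 to -0.34), did not pass (limma adjusted p = 0.11). It passed without lox library 3 (-1.73, limma adjusted p = 0.0238) or without Cre alfp library 3 (-1.61, limma adjusted p = 0.0252). Over all refits without 1 library of these groups, it ranged from -1.73 to -0.82, with limma adjusted p from 0.0238 to 0.449.

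Between FoxA1/A2-deleted and undeleted libraries, Cyp8b1 differed more in the mice without FoxA3, by a difference of differences of -4.16 on the log2 scale (SE 0.57, limma adjusted p = 0.000282). Virus and transgene deleted the genes in the 2 settings, and the way of deletion cannot be told apart from FoxA3 status in this term. Cyp8b1 was 1 of 2 enzymes that passed in it, beside 6.82% of all genes. The other was Akr1d1.

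The start of Cyp8b1 is shown because it was the enzyme that fell in both the FoxA triple null hepatocytes and the livers labelled HNF4a null. RefSeq promoter sequences (250 bases before to 50 after the start, build GRCm38.p6) were found for 5 of the 10 enzymes, as 6 promoters: Cyp8b1, Cyp27a1, Hsd3b7, Akr1d1 and Acox2, which has 2 overlapping ones. No entry was found for Cyp7a1, Cyp7b1, Amacr, Baat and Slc27a5. Both strands were searched for the forkhead words TGTTTAC and TGTTTGC, and for the HNF4-type words CAAAGTCCA and AAAGTCC, the second of which lies inside the first. Hsd3b7, which fell in the same livers, and Akr1d1, which rose in the triple null hepatocytes, are printed for comparison, each 5′ to 3′ on its own strand with any match in capitals.
Cyp8b1, minus strand, chr9:121916256-121916555: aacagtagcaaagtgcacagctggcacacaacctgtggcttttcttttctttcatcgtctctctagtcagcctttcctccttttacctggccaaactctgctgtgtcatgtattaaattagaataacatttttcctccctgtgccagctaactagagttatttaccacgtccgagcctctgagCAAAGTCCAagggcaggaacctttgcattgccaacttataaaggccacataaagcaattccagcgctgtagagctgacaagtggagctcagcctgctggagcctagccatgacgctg
Hsd3b7, plus strand, chr7:127800359-127800658: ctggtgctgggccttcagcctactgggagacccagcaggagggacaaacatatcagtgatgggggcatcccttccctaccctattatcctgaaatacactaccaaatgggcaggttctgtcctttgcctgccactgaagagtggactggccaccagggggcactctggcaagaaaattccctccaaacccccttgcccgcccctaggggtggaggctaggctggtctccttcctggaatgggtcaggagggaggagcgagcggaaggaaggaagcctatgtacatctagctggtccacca
Akr1d1, plus strand, chr6:37529923-37530222: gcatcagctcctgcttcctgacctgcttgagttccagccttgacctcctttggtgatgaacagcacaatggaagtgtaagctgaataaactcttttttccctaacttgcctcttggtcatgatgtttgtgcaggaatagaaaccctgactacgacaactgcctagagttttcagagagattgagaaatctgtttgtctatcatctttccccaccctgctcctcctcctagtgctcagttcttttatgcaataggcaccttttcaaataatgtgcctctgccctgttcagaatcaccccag

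The Cyp8b1 promoter holds CAAAGTCCA on the gene's strand, from 67 to 59 bases before the start. That word occurs in 0.475% of the 32851 mouse promoters in the table, and the shorter AAAGTCC occurs in 4.21%. None of the other 5 enzyme promoters holds either word. No promoter of the 6 holds TGTTTAC or TGTTTGC, which occur in 3.65% and 5.07% of all promoters. No other forkhead words were searched. Close variants, such as tatttac in the printed Cyp8b1 sequence and tgtttgt in that of Akr1d1, were not counted. A match describes letters in this window and no measured binding.

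Cyp27a1, the mitochondrial sterol 27-hydroxylase that opens the alternative pathway and oxidises the side chain in the classic one, measured 65.0, 68.6, 82.0 and 76.7 RPKM in the triple null libraries. The FoxA3 null libraries measured 269, 225, 207 and 197 RPKM, all far above them. Cyp27a1 thus differed by -1.60 on the log2 scale (SE 0.15, limma adjusted p = 2.87e-06). Cre alfp libraries, at 82.8, 114, 121 and 103 RPKM, also lay below all 3 lox libraries, at 168, 161 and 234. That difference of -0.83 had an adjusted p of 0.00957 in limma but was under the minimum difference. The difference of differences was -0.77 (limma adjusted p = 0.034), also under the minimum.

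Akr1d1, the 5β-reductase that gives the steroid ring its bent shape, was the 1 enzyme that rose. It measured 123, 120.2, 177 and 137 RPKM in the triple null libraries. The FoxA3 null libraries measured 52.9, 40.8, 34.3 and 26.1 RPKM, with no overlap. Akr1d1 differed by 1.85 on the log2 scale (SE 0.23, limma adjusted p = 3.69e-05). In lox and Cre alfp libraries Akr1d1 overlapped, at 34.7 to 60.9 and 37.7 to 64.1 RPKM, and the difference of differences was 1.67 (SE 0.34, limma adjusted p = 0.00532). In RefSeq, Akr1d1 overlaps the lncRNA Gm33429 and the pseudogene Gm7463, and whether reads were counted by strand is not given in the sources used here.

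Acox2, the peroxisomal oxidase that begins side-chain shortening, measured 31.97, 43.7, 44.3 and 49.3 RPKM in the triple null libraries. The FoxA3 null libraries held 86.3, 85.5, 79.6 and 91.9 RPKM, again without overlap. The log2 difference of -1.02 (SE 0.13, limma adjusted p = 5.75e-05) sat at the minimum for a call: it was -0.99 without FoxA3 null library 4 and -0.89 without triple null library 1. The difference of differences for Acox2 was -0.99 (limma adjusted p = 0.00453), just under the minimum. It passed with a pseudocount of 0.1 (-1.002), with quantile normalization (-1.105) and without any 1 of 6 libraries (-1.071 to -1.001). Over all single libraries left out it ranged from -1.071 to -0.861, and the other omissions kept it under the minimum. Amacr, the racemase that acts in the same peroxisomal branch, measured 39.9 to 71.0 RPKM in triple null and 57.3 to 65.8 in FoxA3 null libraries, a difference of -0.31 (95% interval -0.63 to 0.01). Amacr was the 1 enzyme of the 10 that passed in none of the comparisons.

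Cyp7a1, the rate-limiting 7α-hydroxylase of the classic pathway, was the least abundant enzyme in the lox, Cre alfp and FoxA3 null groups. It measured 7.83, 13.3, 8.68 and 22.2 RPKM in the triple null libraries. The FoxA3 null libraries measured 15.6, 6.90, 3.67 and 8.54, the Cre alfp libraries 8.35, 6.28, 2.72 and 14.7, and the lox libraries 5.42, 3.90 and 21.3. All 4 groups overlapped, and libraries within a group differed several-fold. The triple null difference of 0.57 had a 95% interval of -0.57 to 1.71 (limma adjusted p = 0.451), wide enough to hold a change past the minimum in the upward direction. In lox library 3 Cyp7a1 was at its group's highest value while Cyp8b1 and Hsd3b7 were at their lowest.

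Cyp7b1, the oxysterol 7α-hydroxylase of the alternative pathway, moved in a different group. In the Cre alfp libraries it measured 16.4, 80.5, 57.7 and 31.1 RPKM. The lox libraries measured 130.0, 105 and 117, all above them. It was the 1 enzyme called in this comparison, at -1.55 (SE 0.37, limma adjusted p = 0.0281), where 2.38% of all genes were called. Summed RPKM of 8 erythroid markers was 16.0 to 29.7 in Cre alfp and 81.8 to 91.1 in lox libraries, with 1 of 4 tested called higher and 1 lower, and that of 10 cholangiocyte markers was 2.99 to 7.58 against 4.87 to 14.3, with 1 of 2 lower. The part of these shifts in the Cyp7b1 difference was not tested. The call was lost without any 1 of the 3 lox libraries or without Cre alfp library 4 (adjusted p 0.0594 to 0.111), without the filter on low values (0.0743) and in a fit of these groups alone (0.129). In mice without FoxA3, Cyp7b1 measured 134, 136, 138 and 142 RPKM in triple null and 157, 106, 176 and 133 in FoxA3 null libraries, a difference of -0.04 (95% interval -0.78 to 0.71). The difference of differences, 1.51, did not pass (limma adjusted p = 0.0623), and it did without Cre alfp library 2 (1.85, limma adjusted p = 0.0131). Over all single libraries left out it ranged from 1.10 to 1.85, with limma adjusted p from 0.0131 to 0.132. RefSeq places the snRNA Gm23686 within the Cyp7b1 locus.

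Hsd3b7, the dehydrogenase that follows both 7α-hydroxylases, measured 121, 107, 183 and 174 RPKM in triple null libraries. FoxA3 null libraries measured 229.8, 196, 257 and 210.0, above all 4 of them. The difference of -0.63 (SE 0.31, limma adjusted p = 0.133) was under the minimum. The lox libraries measured 429, 293 and 124 RPKM, the widest spread of Hsd3b7 in any group.

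Slc27a5, the ligase that activates bile acids with coenzyme A, was the most abundant of the 10 in all groups but the livers labelled HNF4a null. In triple null libraries it measured 769.7, 769.9, 722 and 924 RPKM. In FoxA3 null libraries it measured 673, 683, 782 and 592, overlapping them. The difference was 0.22 (95% interval -0.01 to 0.46, limma adjusted p = 0.138). In Cre alfp libraries Slc27a5 measured 733, 660.5, 634 and 724 RPKM against 1057, 956 and 1048 in lox libraries. This fall of 0.57, without overlap (limma adjusted p = 0.0118), was under the minimum. The difference of differences for Slc27a5 was 0.79 (limma adjusted p = 0.00522), also under the minimum. Baat, the acyltransferase that adds taurine or glycine, averaged 145 ± 19.9 in lox, 138 ± 10.5 in Cre alfp, 151 ± 11.3 in FoxA3 null and 161 ± 21.1 RPKM in triple null libraries (SD). Its triple null difference was 0.08 (95% interval -0.17 to 0.34). In RefSeq, Baat overlaps the lncRNA Gm32894.

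**Figure D2:**
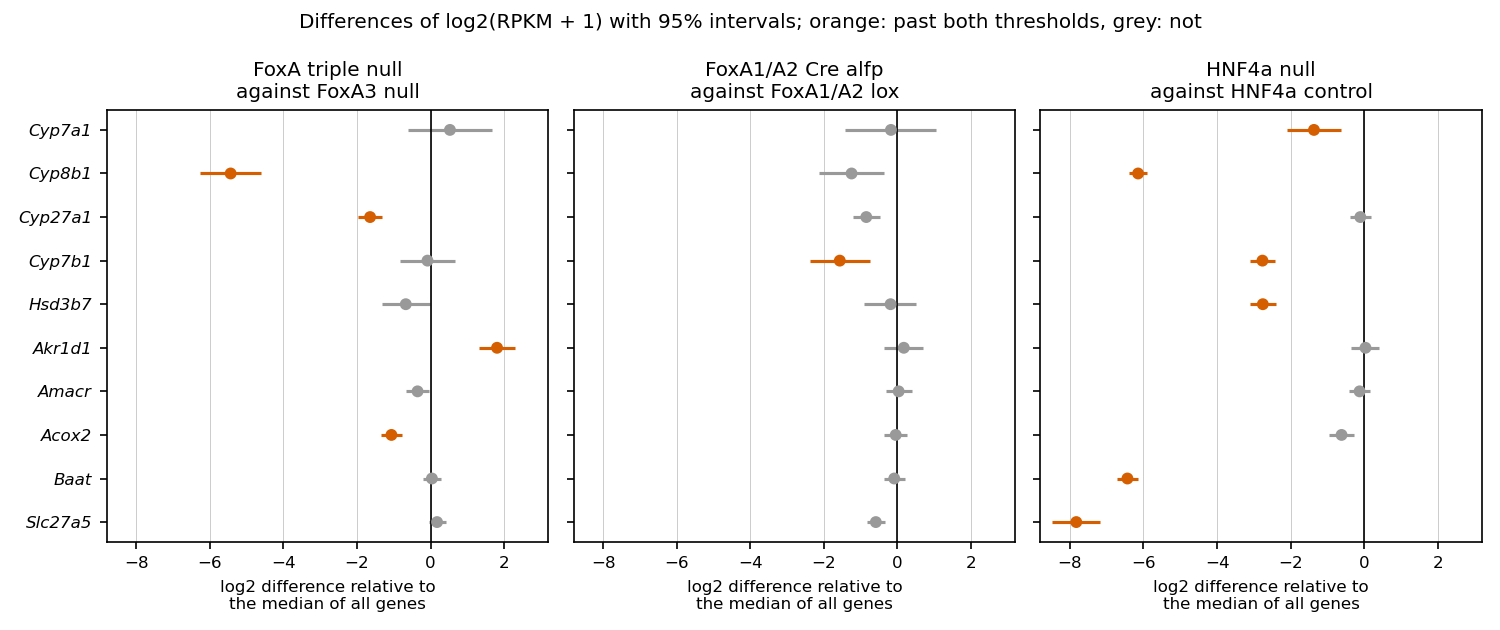
Log2 differences of the 10 enzymes with 95% intervals in 3 comparisons, on the log2(RPKM + 1) scale after subtracting the median of all genes. Orange marks enzymes past both thresholds: 4 in FoxA triple null against FoxA3 null, 1 in FoxA1/A2 Cre alfp against FoxA1/A2 lox, and 6, all lower, in the livers labelled HNF4a null.

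Triple null libraries were also set against the groups with FoxA3, across the split described above. Here the median of all genes was shifted by 0.13 against both groups, and differences are given relative to it, with calls made before subtracting it. Against lox, Cyp8b1 (-5.80), Cyp27a1 (-1.47) and Akr1d1 (1.44) passed, 3 enzymes beside 13.5% of all genes. Against Cre alfp, Cyp8b1 (-4.57), Akr1d1 (1.26) and Cyp7b1 (1.65) passed, 3 enzymes beside 10.3% of all genes. Both comparisons share the triple null libraries with the main one. Between FoxA3 null and lox, 0 enzymes passed in limma, beside 7.19% of all genes. There 2 enzymes had an unadjusted p under 0.05: before the shift was subtracted Slc27a5 was at -0.59 (limma adjusted p = 0.00294) and Amacr at 0.45 (limma adjusted p = 0.0429), both under the minimum. With each library scaled by its median, Slc27a5 was at -0.71 (limma adjusted p = 0.00197) and Amacr at 0.34, where its limma adjusted p was 0.0967.

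Other cells' markers moved with the triple null group. Summed RPKM of 12 sinusoidal endothelium markers was 9.07 to 18.3 in triple null and 33.5 to 52.0 in FoxA3 null libraries, with 3 of 9 tested markers called lower. For 12 stellate and fibroblast markers it was 14.7 to 58.4 against 52.2 to 79.8, with 2 of 5 lower. For 10 neutrophil and monocyte markers it was 9.90 to 112 against 0.786 to 2.09, with 2 of 2 higher, Ly6g at 0 in both groups and Mpo at 0 in FoxA3 null. For 8 erythroid markers it was 8.09 to 29.7 against 34.1 to 48.3, with 3 of 4 higher and 1 lower. The 15 hepatocyte markers, all detected, summed to 52188 to 61919 against 67662 to 78268 RPKM, with 6 called lower and 2 higher. The part of these shifts in the enzyme differences was not tested. In bulk RNA, fewer cells of a type and less RNA per cell cannot be told apart.

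In the livers labelled HNF4a null, 6 of the 10 enzymes were lower in limma. Both conjugating enzymes were nearly lost together with Cyp8b1: Slc27a5 stood at 0.437% of its control mean, Baat at 0.700% and Cyp8b1 at 0.219%. Cyp7b1 and Hsd3b7 stood at 17.2% and 18.3%, and Cyp7a1 at 50.8%. Cyp27a1, Akr1d1, Amacr and Acox2 were not called. Over all 12434 genes tested in liver, 5.95% were called lower and 14.5% in either direction. The median of all genes was shifted by 0.34, so differences are given relative to it, while calls and limma adjusted p are those of the differences before the shift was subtracted. After scaling each library by its median, the split of all calls turned from 1067 of 1807 higher to 574 of 1560 higher. The median of the 10 enzymes was -2.06 relative to all genes. Since Hnf4a RNA was higher in these libraries, the direction rests on the label.

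Slc27a5 measured 772 and 676 RPKM in the 2 control livers. It measured 2.92, 1.69, 4.70 and 3.35 in the 4 libraries labelled HNF4a null, a difference of -7.49 (SE 0.27, limma adjusted p = 5.53e-06) and -7.83 after subtracting the shift. Slc27a5 supplied 43.6% of the summed RPKM of the 10 enzymes in control livers and 0.619% in the libraries labelled HNF4a null. Baat measured 134 and 125 RPKM in controls and 0.724, 0.817, 1.15 and 0.936 in the others, a difference of -6.10 (SE 0.12, limma adjusted p = 5.27e-07) and -6.44 after subtracting the shift. Neither gene overlapped between the groups, and neither passed in any FoxA comparison.

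Cyp8b1 measured 66.2 and 59.3 RPKM in control livers. The libraries labelled HNF4a null held 0.127, 0.0839, 0.206 and 0.132 RPKM, a ratio of means of 457 and a difference of -5.81 (SE 0.10, limma adjusted p = 5.08e-07) and -6.14 after subtracting the shift. All 4 libraries lay under the lowest triple null hepatocyte library, which came from another preparation and was not tested against them. With 1 control library left out, Cyp8b1 no longer met the filter on low values and was not tested.

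Cyp7b1 measured 52.1 and 50.7 RPKM in control livers and 9.12, 10.2, 9.005 and 7.01 in the libraries labelled HNF4a null (difference -2.43, SE 0.14, limma adjusted p = 3.87e-05). Hsd3b7 measured 198 and 176 RPKM in controls and 36.5, 39.8, 32.6 and 28.2 in the others (difference -2.42, SE 0.15, limma adjusted p = 4.82e-05). Relative to the median both stood at -2.76, and both had clear gaps between the groups.

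Cyp7a1 in every liver library lay above all hepatocyte libraries of the same matrix, a gap that was not tested. It measured 175 and 170.0 RPKM in controls and 94.4, 50.3, 88.2 and 118 in the libraries labelled HNF4a null. The groups did not overlap, and the difference was -1.03 before the shift was subtracted (SE 0.31, limma adjusted p = 0.0287) and -1.37 relative to the median. This call was lost without either control library (adjusted p 0.107 and 0.115), without the filter on low values (0.0967), with quantile normalization (0.0573), and without the library with barcode GGCTAC (-0.79 before the shift) or GTGGCCA (adjusted p 0.0506).

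The 4 other enzymes were not called in liver. Cyp27a1 averaged 158 RPKM in libraries with the null label and 134 in controls, Akr1d1 112 and 86.1, Amacr 45.0 and 39.0, and Acox2 61.6 and 74.6. Before the shift was subtracted they differed by 0.23, 0.37, 0.21 and -0.28, with limma adjusted p between 0.0924 and 0.178. Relative to the median they stood at -0.11, 0.03, -0.13 and -0.62. With each library scaled by its median, Acox2 was at -0.59 with a limma adjusted p of 0.0243, still under the minimum of 1, and the limma adjusted p of the other 3 lay between 0.499 and 0.806. The summed RPKM of all 10 enzymes was 1578 to 1744 in controls and 456 to 549 in libraries labelled HNF4a null. In hepatocytes that sum was 1422 to 1754 in triple null and 1526 to 1800.1 in FoxA3 null libraries, which overlapped.

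The summed RPKM of 10 cholangiocyte markers was 133 to 232 in the 4 libraries with the null label and 17.2 and 17.3 in the controls, with 5 of 7 tested called higher. For 10 neutrophil and monocyte markers it was 5.32 to 18.3 against 2.02 and 2.57, with 2 of 3 higher, Ly6g at 0 in both groups and Mpo at 0 in the controls. For 11 Kupffer and macrophage markers it was 189 to 230.1 against 149 and 158, with 1 of 11 higher. Sums for sinusoidal endothelium (224 to 239.6 against 165 and 189) and for stellate cells and fibroblasts (194 to 217 against 163 and 177) also lay above the controls, with none of their tested markers called. For 8 erythroid markers the sums overlapped, at 202 to 610.2 against 311 and 345, with 1 of 5 lower. The 15 hepatocyte markers summed to 18464 to 20978 against 42414 to 44146 RPKM, with 9 called lower and 1 higher. The part of these shifts in the enzyme differences was not tested.

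Set side by side, the hepatocyte and liver comparisons share no library. Of the 9 enzymes that passed in either, 1 passed in both: Cyp8b1, lower in each. Over the 10774 genes tested in both, 368 of the 2041 called in either were called in both, 237 of them in the same direction. Cyp27a1, Acox2 and Akr1d1 passed in the FoxA comparison, and Slc27a5, Baat, Cyp7b1, Hsd3b7 and Cyp7a1 in the liver comparison. The difference between the comparisons was not tested, since tissue, deletion and control differ together.

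**Figure D3:**
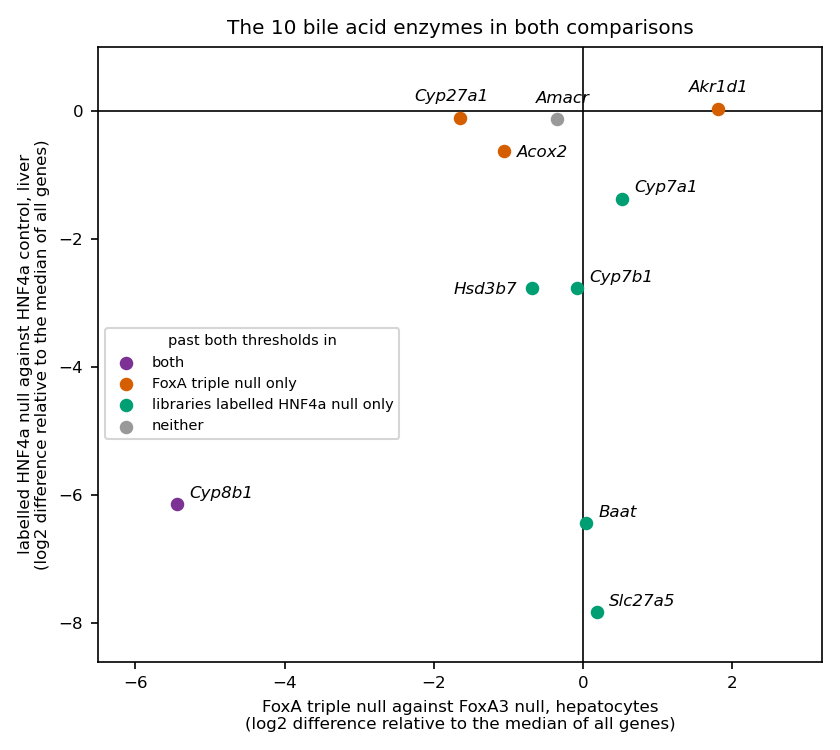
Each of the 10 enzymes by its log2 difference in FoxA triple null against FoxA3 null hepatocytes (horizontal) and in livers labelled HNF4a null against HNF4a control (vertical), both relative to the median of all genes. Cyp8b1 is low on both axes, at -5.44 and -6.14, while Baat and Slc27a5 are low on the vertical axis and near 0 on the horizontal one.

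Other genes of bile acid handling were read from 3 lists, whose counts stand beside the shares of all genes given above: 3.95% lower and 4.17% higher in triple null against FoxA3 null, 2.38% in Cre alfp against lox, and 5.95% lower and 14.5% in either direction in liver. Among 16 tested of 17 further synthesis enzymes, 3 were lower and 1 higher in triple null against FoxA3 null. Cyp2c70, which makes muricholic acids in mice, fell by 1.85 on the log2 scale, Hsd17b6 by 2.54 and Scp2, the peroxisomal thiolase of side-chain cleavage, by 1.50, and Dhrs9 rose by 1.82 (limma adjusted p 1.17e-05 to 9.47e-05). Cyp2c70 averaged 65.6 ± 9.61 RPKM in triple null and 240 ± 39.1 in FoxA3 null libraries (SD, n = 4). Hsd17b6 was high in the FoxA3 null group: it averaged 344 ± 152 RPKM there, 56.5 ± 21.8 in triple null, 86.3 ± 39.7 in Cre alfp and 84.9 ± 9.35 in lox libraries (SD). Before subtracting the shift, FoxA3 null stood 1.90 above lox (limma adjusted p = 0.0028), while triple null stood at -0.65 against lox and -0.57 against Cre alfp, neither called. Triple null was also not called against either of these groups for Scp2 (-0.75 and -0.29), Nr5a2 (-0.34 and -0.41) and Fgf21 (-0.61 and -0.85). Cyp2c70 also fell in Cre alfp against lox, by 1.89 (limma adjusted p = 0.000336), the 1 enzyme of this list to do so. In the libraries labelled HNF4a null, Cyp2c70 (-4.39), Slc27a2 (-1.93) and Scp2 (-1.88) were lower and Por (1.27), Cyp46a1 (0.95) and Hsd17b6 (0.72) higher, all relative to the median. Calls were made before the shift was subtracted: Cyp46a1 and Hsd17b6 passed at 1.28 and 1.05, and relative to the median both were under the minimum. List medians in the 2 settings were -0.16 and -0.63 relative to all genes.

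Of 30 regulators, 28 were tested in hepatocytes, and 4 were lower in triple null libraries. Besides Foxa1 and Foxa2, these were Fgf21 (-1.61) and Nr5a2 (-1.0), known as a partner of HNF4a at bile acid genes. Nr1h4, which encodes FXR, averaged 99.1 ± 11.1 RPKM in triple null and 96.4 ± 6.26 in FoxA3 null libraries. Nr0b2, which encodes SHP, averaged 84.9 ± 27.2 against 46.5 ± 16.1, and neither passed. In Cre alfp libraries Nr1i3, the receptor CAR, rose by 1.12 and Nr1d1 by 2.2 (limma adjusted p 0.00051 and 0.0419), beside the lower Foxa1 and Foxa2. Nr1d1 overlapped there, at 24.6 to 83.0 RPKM in Cre alfp and 1.94 to 28.8 in lox libraries. Before subtracting the shift, Nr1d1 was also called higher against lox in FoxA3 null (2.4) and triple null libraries (2.82). In the libraries labelled HNF4a null, Nr1i3 (-5.14), Ppara (-2.52) and Cebpa (-1.77) were lower and Hnf4a itself was higher (1.76).

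Of 17 transporters, 15 were in the matrix and 14 were tested in hepatocytes. Slco1a1, an uptake carrier for organic anions, fell by 6.04 in triple null libraries, to 1.10 to 1.75 RPKM from 120.3 to 216 in FoxA3 null. Abcc3, a basolateral exporter, fell by 1.35, and the uptake carrier Slco1b2 rose by 1.05 (limma adjusted p 2.3e-06 and 0.000421). Slc10a2 rose by 1.66 in Cre alfp libraries (limma adjusted p = 0.0148). In the libraries labelled HNF4a null, 6 of 15 were lower and 3 higher: Slco1a1 (-6.78), Slco2b1 (-4.50) and Slc10a1, the main bile acid uptake carrier (-3.43), were among the former, and Slco1a4 (1.80), Abcc3 (1.61) and the bile salt export pump Abcb11 (1.33) were the latter. Slco and Cyp2c genes belong to families of close paralogs, between which reads could be split.

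**Figure D4:**
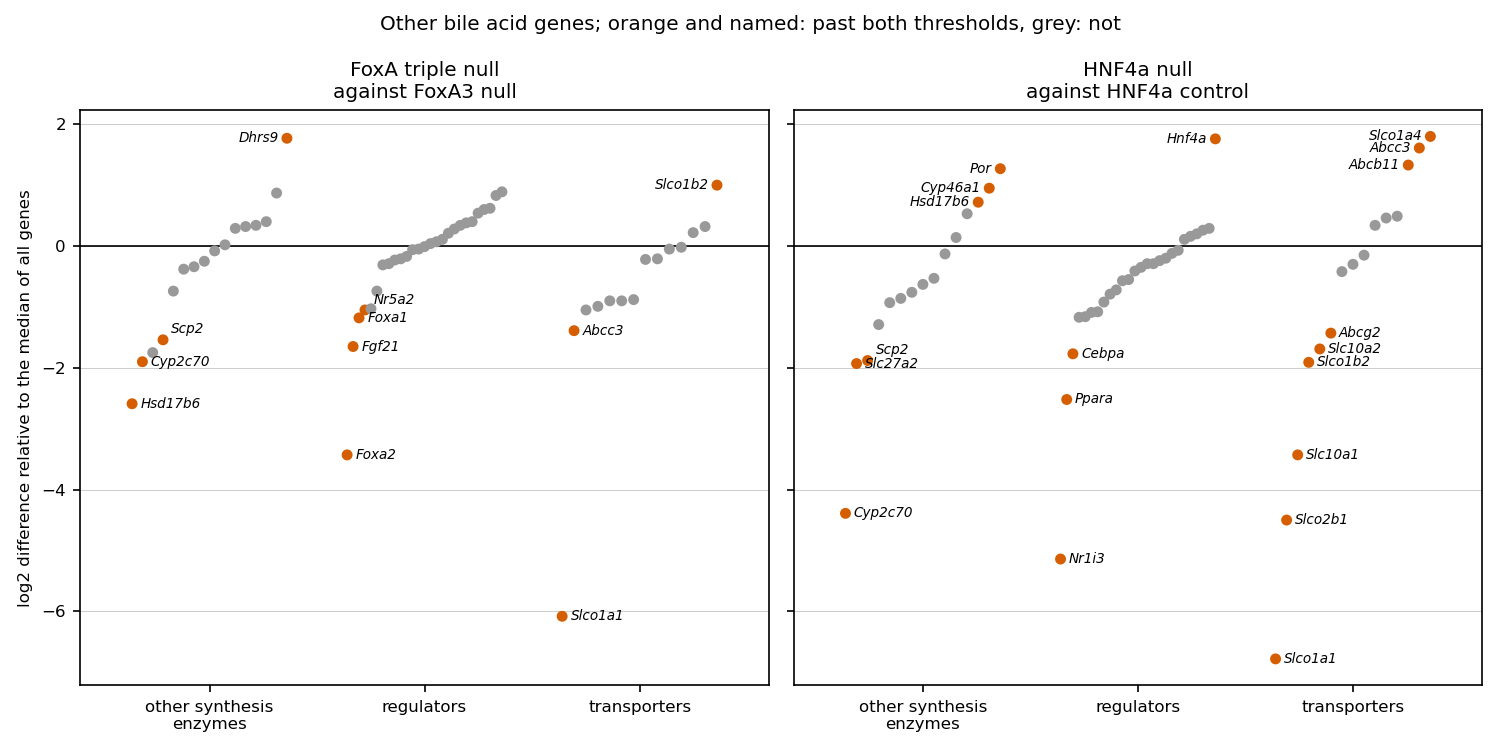
Log2 differences, relative to the median of all genes, for further synthesis enzymes, regulators and transporters of bile acids, with 1 point per gene shown and those past both thresholds in orange with their names. Slco1a1 lies below -6 in both panels, while Abcc3 and Hsd17b6 are below 0 in the FoxA triple null panel and above 0 in the panel of livers labelled HNF4a null.

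The genes nearest to each enzyme over the 6 group means of log2(RPKM + 1), after centring, were found among 5899 candidates by Euclidean distance in log2 units. The profile closest to Cyp8b1 belonged to Hao1, a glycolate oxidase, at 0.75, followed by Ugt2b1 at 0.88. Hao1 measured 0.956 to 1.62 RPKM in triple null and 104 to 139 in FoxA3 null libraries, and 0.205 to 0.883 in libraries labelled HNF4a null against 135 and 147 in controls. Nearest to Akr1d1 was Tmem62 (0.40), with 17.97 to 23.0 RPKM in triple null and 4.63 to 6.08 in FoxA3 null libraries. Slc27a5 was closest to Haao (0.66) and Otc (0.72), Baat to Cyp2d10 (0.56) and Cyp2d9 (0.76), and Cyp7b1 to Saa4 (0.64). Acox2 had the closest neighbours, Nfyb (0.23) and Tpst2 (0.27), and mt-Rnr2 lay at 1.39 from Cyp7a1. Amacr varied by less than 1 over the groups and was not matched.

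The authors' deposited table for triple null against FoxA3 null lists log2 fold changes of -7.39 for Cyp8b1, -1.65 for Cyp27a1, -1.08 for Acox2 and 1.84 for Akr1d1. The authors' deposited table also lists Hsd3b7 at -0.60 with an adjusted p of 0.00572, and Slc27a5 at -0.40 with 0.0644, opposite in sign to the 0.22 found from the RPKM values. For liver, the authors' deposited table lists -9.26 for Cyp8b1, -8.29 for Slc27a5, -7.46 for Baat, -1.70 for Cyp7a1 and -0.68 for Acox2, the last with an adjusted p of 2.01e-10.

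The authors' deposited tables also set earlier stages against adult hepatocytes. In the table for hepatoblasts all 10 enzymes are lower at an adjusted p under 0.05, from -9.05 for Baat to -4.19 for Cyp7a1, beside 37.9% of the 13473 genes with an adjusted p. For newborn hepatocytes, the authors' deposited table has 3 enzymes lower, Cyp7b1 (-8.84), Cyp27a1 (-3.21) and Baat (-3.20), beside 31.7% of 12176 genes, and Acox2 is higher at 0.42. Cyp8b1 is listed there at 1.21 with an adjusted p of 0.0871, and the authors' deposited table lists Akr1d1 at 0.19 with 0.508.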

How the data were processed

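RNA from 15 hepatocyte and 6 liver libraries was read from 1 matrix of RPKM values that the authors deposited. Per the submitters' processing notes, Cufflinks 2.2.1, SAMtools and DESeq2 were used with build mm9, without stated roles. The matrix holds no counts and absolute depth is unknown. Steps between low values gave relative depths of 2.01 to 4.07 in hepatocytes and 1.00 to 1.10 in liver, so low values are less precise in liver. Of the columns, 21 matched samples and 9 others were not used. No pair of libraries held identical values.

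limma 3.58.1 (R 4.3.3, trended variance) was fitted on log2(RPKM + 1) to all hepatocyte groups together (RPKM of at least 1 in 3 libraries, 11500 genes) and to liver alone (in 2 libraries, 12434 genes). P-values were Benjamini-Hochberg adjusted over all genes. A call needed an adjusted p under 0.05 and a log2 difference of at least 1. Alternatives were a pseudocount of 0.1, no filter, no minimum difference, median scaling, quantile normalization, only the compared groups, a replicate block and leaving out each library. The test was tried on simulated data. Log2 fold changes, p-values and mean signal came from the authors' deposited comparison tables and were printed only as the authors' values. The deposited HNF4a peak list was not used, because its build differs from the gene table's.

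The enzymes and gene lists were chosen with earlier results of these data known. Genes named from the other lists were the called members with the largest differences, up to 8 per list. Some genes of these lists are not reported here.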

Additional observations from a re-analysis of the deposited data

Results flagged for a closer look

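Amacr measured 57.3 RPKM in FoxA3 null library 1, below the other 3 libraries of its group at 64.4 to 65.8. Baat measured 129.8 RPKM in FoxA triple null library 1, below the others at 169 to 175. Both were found by their gap to the nearest library among 40 sets of an enzyme and a group of 4, where chance gives about 1 in 20.

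Loss of FoxA1 and FoxA2 changed Cyp8b1 and Akr1d1 differently with and without FoxA3, with differences of differences of -4.16 for Cyp8b1 and 1.67 for Akr1d1 in the interaction term of limma (adjusted p 0.000282 and 0.00532). FoxA3 status and the way of deletion cannot be told apart here.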

How the results depend on the processing

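In triple null against FoxA3 null, 3 to 4 of the enzymes passed when 1 library was left out. The 1 enzyme called in Cre alfp against lox, Cyp7b1, was the least settled: the count was 3 with no minimum difference, 0 without the filter, 0 in a fit of the compared groups alone, and 0 to 2 when 1 library was left out. With a replicate block it was 0; same-numbered libraries did not deviate together (correlations -0.36 to 0.17), so the numbers were not taken as pairs. No paired analysis was possible for liver because its columns carry barcodes in place of replicate numbers. With no minimum difference, counts became 5 for the difference of differences, 5 against lox, 5 against Cre alfp and 2 for FoxA3 null against lox. Leaving out 1 library gave 2 to 3, 3 to 4, 3 to 3 and 0 to 0 for these, and 4 to 6 in liver, where 4 came from leaving out either control, since Cyp8b1 then missed the filter and Cyp7a1 was no longer past the adjusted p (0.115 and 0.107).

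Of the settings run on single enzymes, 973 values stayed on the same side, 23 passed anew, 15 were lost and 27 changed sign, none of them a called value. Median scaling turned Amacr and Baat against lox to -0.004 each, Amacr against Cre alfp to -0.031 (-0.068 with quantile normalization), Baat in FoxA3 null against lox to -0.055, and Cyp27a1 and Amacr in liver to -0.082 and -0.102. Quantile normalization turned Acox2 in Cre alfp against lox to 0.002. Leaving out 1 library gave -0.170 to 0.071 for Cyp7b1 against FoxA3 null. In Cre alfp against lox it gave -0.592 to 0.501 for Cyp7a1, -0.675 to 0.217 for Hsd3b7, -0.001 to 0.395 for Akr1d1, -0.015 to 0.094 for Amacr, -0.119 to 0.053 for Acox2 and -0.152 to 0.039 for Baat. It gave -0.852 to 0.041 for Hsd3b7 in the difference of differences, -0.011 to 0.260 for Amacr against lox and -0.063 to 0.208 against Cre alfp. In FoxA3 null against lox it gave -0.454 to 0.639 for Cyp7a1, -0.773 to 0.134 for Cyp8b1, -0.673 to 0.220 for Hsd3b7 and -0.023 to 0.169 for Baat. The cause was not tested.

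Over all genes, calls rose with no minimum difference from 933 to 3413 in triple null against FoxA3 null, 274 to 628 in Cre alfp against lox, 784 to 1658 in the difference of differences, 1556 to 4891 against lox, 1184 to 4743 against Cre alfp, 827 to 4001 in FoxA3 null against lox and 1807 to 6569 in liver. Calls in Cre alfp against lox were 182 in the compared groups alone and 177 without lox library 1, and those in FoxA3 null against lox 1303 with a pseudocount of 0.1. Median scaling turned the higher calls from 888 to 694 of 1487 against lox, 605 to 453 of 1134 against Cre alfp and 418 to 309 of 827 in FoxA3 null against lox; quantile normalization left 584 higher of 1484 in liver.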
